A study of Drosophila melanogaster with 9 samples.

Results

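The 5 genes described here, grh, Cda4, GNBP3, nw and out, were chosen by their measured fold changes, among the largest rises into Grh+ INPs from Ey+ or D+ INPs. These values come from the same 9 libraries and are given as a description without a test. They are 5 of the 16364 genes in the count table, and all 5 are among the 10193 genes that passed edgeR's filter on low counts. Intermediate neural progenitors (INPs) arise from type II neuroblasts in the Drosophila larval brain and pass through 3 temporal states marked by the transcription factors Dichaete (D), Grainyhead (Grh) and Eyeless (Ey). PolyA RNA was sequenced from sorted D+, Grh+ and Ey+ INPs, with 3 libraries per state. All groups were labelled wild-type, came from wandering L3 larvae laid as eggs at 25 °C and raised for 5 days at 29 °C, and carried UAS-cd8::tdTomato with erm-GAL4, a driver active in INPs. For each library, 6000 to 7000 of the largest cells with the highest tdTomato and GFP signal were sorted. D+ INPs carried GFP knocked into the endogenous D locus by CRISPR/Cas9. Grh+ INPs carried Grh-GFP on an inserted BAC clone and Ey+ INPs carried Ey-GFP on an inserted BAC clone, so each of these lines had extra copies of the tagged gene. The sources used here do not say that the libraries of a state came from separate animals or days, and p-values then measure only the spread between these libraries.

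Grainyhead is a transcription factor best known for building and repairing the epidermal barrier, where its targets include genes for cuticle, junction and adhesion proteins, and it also acts in neuroblasts as a late temporal factor. The other members have no common pathway. Cda4 encodes a member of the chitin deacetylase family, enzymes that modify the chitin of cuticle and tracheal lining. GNBP3 encodes a secreted recognition protein that binds fungal beta-glucan upstream of Toll signalling. The product of nw (narrow) is a C-type lectin that acts with the giant apical matrix protein Dumpy in wing shape. That of out (outsiders) is a transporter of the monocarboxylate transporter family, known from germ cells.

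Library depth lay between 11266164 counts on genes (Grh+ replicate 1) and 23184025 (D+ replicate 1). Grh+ replicate 2 stood apart: of 998 genes with no count in any of the other 8 libraries, 304 were detected in it, at a median of 4 counts each (0.193 RPM, counts scaled by the total on genes). Ey+ replicate 1 stood apart in another way, with an edgeR scaling factor (TMM) of 0.741, against 0.982 to 1.13 in the others. It had 2704 RPM of the neuron marker elav, against 1144 and 649 RPM in Ey+ replicates 2 and 3. The D+ libraries carry another sequencing run identifier than the rest, so run and state cannot be told apart in any comparison with D+ INPs. Summed neuroblast and INP markers were at 5143 to 5272 RPM in Grh+ libraries, 4427 to 5289 RPM in D+ libraries and 3938 to 4718 RPM in Ey+ libraries, and none of the 7 markers was at 0 in any library. By the rule given next, erm was called lower in Grh+ INPs (mean 109 RPM) and in Ey+ INPs (41.5 RPM) than in D+ INPs (211 RPM). The marker insc was called lower in Ey+ than in D+ INPs (261 against 576 RPM). A gene was called when edgeR's quasi-likelihood test gave a Benjamini-Hochberg adjusted p under 0.05, the absolute log2 fold change was over 1 and the mean exceeded 10 RPM in at least 1 state. By this rule 1.73% of genes tested (176) were called higher in Grh+ than in D+ INPs and 1.43% lower (3.16% in all). Against Ey+ INPs, 0.167% (17) were called higher in Grh+ INPs and 0.0687% lower (0.235% in all). These counts rested on few libraries: with 1 library left out in turn, calls in either direction ranged from 53 to 505 for Grh+ against D+ INPs (322 with all libraries) and from 3 to 72 for Grh+ against Ey+ INPs (24 with all libraries). In the comparison with D+ INPs, leaving out Grh+ replicate 1 gave the lowest count and leaving out D+ replicate 1 the highest. In the comparison with Ey+ INPs, the lowest count came without Grh+ replicate 1 or 3, and the highest without D+ replicate 2.

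The gene grh itself (FBgn0259211, chromosome 2R, 17801132 to 17842820, plus strand, BDGP6.54) was detected in all 9 libraries and highest in Grh+ INPs. It had 579, 838 and 574 RPM in Grh+ libraries, against 238, 88.1 and 172 RPM in D+ libraries. In Ey+ libraries it had 382, 312 and 224 RPM. In RPM every Grh+ library lay above every other library, while D+ and Ey+ libraries overlapped. Divided by the TMM factor, grh was at 516 RPM in Ey+ replicate 1, close to the 522 RPM of Grh+ replicate 3. Grh+ INPs averaged 664 ± 151 RPM (SD, n = 3 as for all values below), D+ INPs 166 ± 74.9 RPM and Ey+ INPs 306 ± 79.0 RPM. The fitted log2 fold change was 1.85 (SE 0.41) for Grh+ over D+ INPs and 0.77 (SE 0.39) for Grh+ over Ey+ INPs. This difference between Grh+ and Ey+ INPs was the smallest among the 5 genes, and grh was not called there. In sorted pools such as these, fewer expressing cells and less RNA per cell cannot be told apart.

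Gene counts cannot separate the endogenous grh from the copy on the Grh-GFP BAC, and the extent of the BAC is not given in the sources used here. Of the 17 tested genes within 50 kb of grh, 15 had a higher fitted level in Grh+ than in D+ INPs (median log2 fold change 0.86) and 16 a higher one in Grh+ than in Ey+ INPs (median 0.56). The median over all genes tested was 0.00 and 0.03 in these comparisons. Many of these neighbours were low: Elk, olf186-M, CG6362, Dhit, CG14490, CG30110, CG30323 and CG30325 averaged 0.592 to 6.86 RPM in Grh+ INPs. Those highest in Grh+ INPs were Mapmodulin (0.33 over D+ and 0.06 over Ey+ INPs), thr (0.42 and 0.56) and OstDelta (-0.81 and -0.13). Within 20 kb all 9 tested neighbours lay higher in Grh+ INPs in both comparisons, with medians of 0.88 and 0.56. Within 100 kb, 20 of 29 lay higher than in D+ INPs and 22 of 29 higher than in Ey+ INPs, with medians of 0.29 and 0.24, and 1 of the 29 was called lower than in D+ INPs. None of the 17 within 50 kb was called by edgeR, a rule that needs a log2 fold change over 1. Over D+ INPs, aft (0.86, edgeR adjusted p = 0.0304) and Orai (0.88, edgeR adjusted p = 0.0459) passed the limit on p but not that on the fold change. At an unadjusted p under 0.05, 3 of the 17 were higher and 1 lower than in D+ INPs and 3 higher than in Ey+ INPs, and DESeq2 called 0 and 1. Around the other members the neighbours lay closer to the median of all genes. Around GNBP3, 9 of 19 genes lay higher in Grh+ than in D+ INPs (median -0.01), around nw 10 of 20 (median -0.02), around out 5 of 8 (median 0.24) and around Cda4 1 of 3 (median -0.30). Their medians against Ey+ INPs were 0.08 for GNBP3, 0.11 for nw, 0.03 for out and -0.10 for Cda4. Against D+ INPs, edgeR called 1 neighbour of GNBP3 higher in Grh+ INPs, and around nw it called mthl3 higher and another pair of genes lower. Within 20 kb, the 3 neighbours of out had medians of 1.29 and 1.00. The part of the BAC in the values around grh was not tested.

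Cda4 (FBgn0052499, chromosome X, 22583634 to 22632710, minus strand) was low outside Grh+ libraries. It had 15.5, 15.96 and 11.98 RPM in Grh+ libraries (175, 331 and 178 counts), against 1.47, 1.33 and 2.18 RPM in D+ libraries (34, 26 and 44 counts). In Ey+ libraries it had 1.33, 0.738 and 1.43 RPM, from 29, 15 and 25 counts. The lowest Grh+ library was 5.50 times the highest D+ library and 8.36 times the highest Ey+ library, and the D+ and Ey+ libraries overlapped. The log2 fold change was 2.97 (SE 0.43) over D+ INPs and 3.31 (SE 0.44) over Ey+ INPs, the highest of the 17 genes called higher in the second comparison.

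GNBP3 (FBgn0040321, chromosome 3L, 8955021 to 8956551, plus strand, 1 exon) followed nearly the same course. It had 16.9, 12.003 and 10.5 RPM in Grh+ libraries (190, 249 and 156 counts), against 2.24, 1.48 and 2.38 RPM in D+ libraries. In Ey+ libraries it had 1.10, 0.787 and 1.55 RPM, from 24, 16 and 27 counts. The Ey+ mean of 1.15 ± 0.382 RPM was below the D+ mean of 2.03 ± 0.481 RPM, but their libraries overlapped. The log2 fold change was 2.53 (SE 0.42) over D+ INPs and 3.23 (SE 0.44) over Ey+ INPs. Both GNBP3 and Cda4 passed the limit of 10 RPM only through their Grh+ level.

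The lectin gene nw (FBgn0283508, chromosome 2R, 17502354 to 17508645, plus strand) was the most even of the members in Grh+ INPs. It had 91.3, 89.1 and 82.7 RPM in Grh+ libraries, against 22.6, 10.2 and 7.08 RPM in D+ libraries. In Ey+ libraries it had 10.1, 8.95 and 11.2 RPM. The lowest Grh+ library was 3.65 times the highest D+ library and 7.36 times the highest Ey+ library. The log2 fold change was 2.57 (SE 0.38) over D+ INPs and 2.82 (SE 0.38) over Ey+ INPs. D+ replicate 1 carried most of the D+ level: without it the log2 fold change of Grh+ over D+ INPs was 3.20, and that of Ey+ over D+ INPs was 0.38 in place of -0.26. The gene lies 292487 bp from grh on the same chromosome arm, beyond the 50 kb window.

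The transporter gene out (FBgn0259834, chromosome X, 19310513 to 19322106, minus strand) was the only member that also separated Ey+ from D+ INPs without overlap. It had 67.5, 53.5 and 62.5 RPM in Grh+ libraries and 18.3, 21.3 and 20.1 RPM in Ey+ libraries. D+ replicate 1 had 24 counts (1.04 RPM), and D+ replicates 2 and 3 had 0. Over the 39749634 counts of these 2 libraries, a count of 0 allows up to 0.0755 RPM (3 counts, counting error only), and the Grh+ mean of 61.2 RPM was 810.8 times that limit. Against D+ replicate 1 alone, the lowest Grh+ library was 51.7 times higher. The fitted log2 fold change of 7.21 (SE 0.88) over D+ INPs therefore rests on that library. Without it the fit gave 12.99, which depends on the prior count and is no bound. Over Ey+ INPs the log2 fold change was 1.33 (SE 0.64), and out was not called there although its libraries did not overlap, as was so for 21.5% of all genes tested in that comparison (21.3% against D+ INPs).

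**Figure D1:**
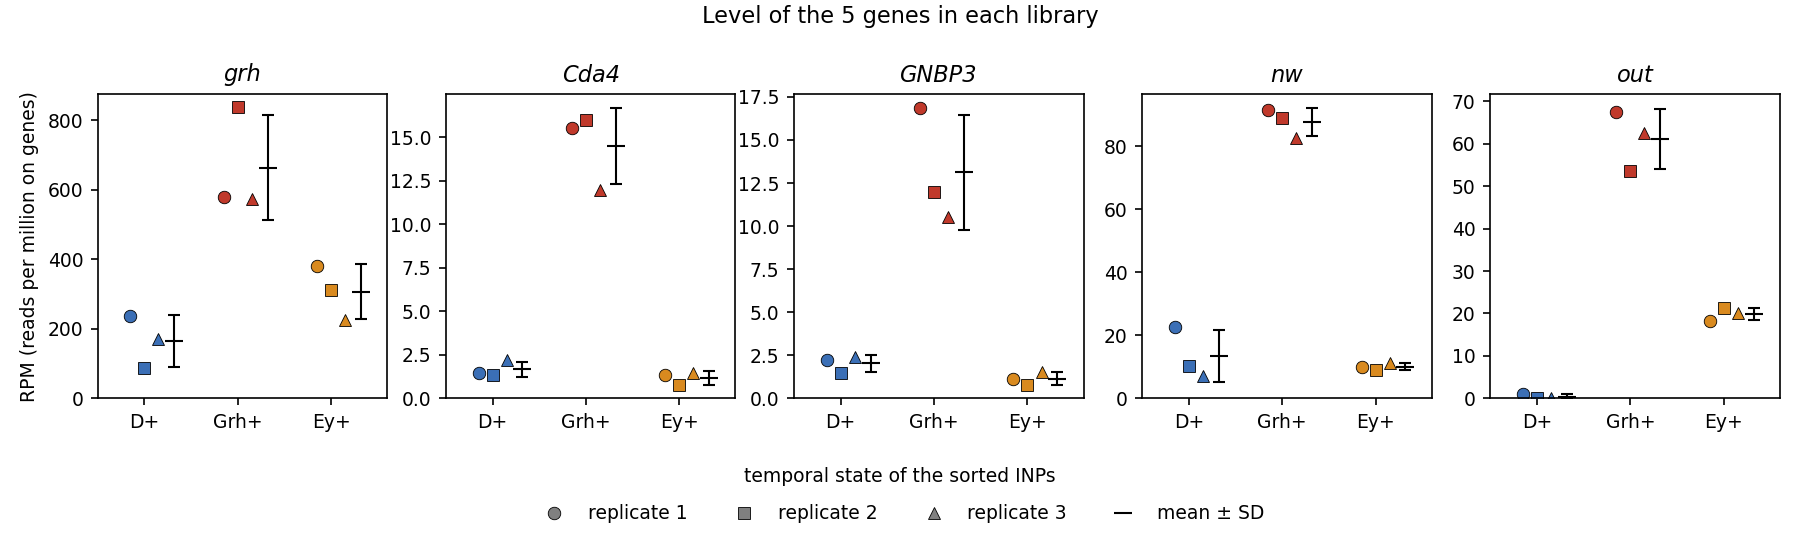
RPM (linear axis from 0, scaled per gene) of the 5 genes in each library by temporal state. Symbols are replicates and the bar is mean ± SD over 3 libraries. All 3 Grh+ libraries lie above the 6 others for each gene, Ey+ is intermediate for out, and D+ and Ey+ overlap for the rest.

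For each of the 5 genes, the 3 Grh+ libraries lay above all 6 others, which 9.31% of all genes tested did. This pattern is what the rule selected, and nothing is read from the count. Among genes called higher in Grh+ INPs, the members ranked by log2 fold change 2 (out), 23 (Cda4), 48 (nw), 50 (GNBP3) and 98 (grh) of 176 against D+ INPs. Against Ey+ INPs they ranked 1 (Cda4), 2 (GNBP3) and 3 (nw) of 17. Directly behind out against D+ INPs came CG43163 at 6.81, svp at 6.69 and y at 6.28. The gene svp encodes the nuclear receptor Seven-up and y encodes Yellow, a secreted protein of cuticle pigmentation. Against Ey+ INPs the next named genes were Skel at 2.58 and verm at 2.47.

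The members differed in level per exon length. In Grh+ INPs, grh was at 72.3 ± 16.5 RPKM (RPM divided by annotated exon length in kilobases), nw at 25.3 ± 1.29, out at 17.9 ± 2.08, GNBP3 at 8.57 ± 2.17 and Cda4 at 7.49 ± 1.13 RPKM. GNBP3 and Cda4 did not differ beyond their spread, while the other neighbours in this order did. The median of all genes tested was 10.3 RPKM, and the Grh+ means of Cda4 and GNBP3 lay below it.

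Set against grh within each library, the members did not keep a fixed proportion. In Grh+ libraries alone, the grh counts can include those of the copy on the Grh-GFP BAC. The ratios are therefore not to endogenous grh alone, and the part of the BAC in them was not tested. Per 1000 counts of grh, Cda4 had 22.2 ± 4.09 counts in Grh+ INPs, 11.3 ± 4.62 in D+ INPs and 4.08 ± 2.08 in Ey+ INPs. The ratio of GNBP3 was 20.6 ± 7.68 in Grh+ INPs, 13.4 ± 3.73 in D+ INPs and 4.10 ± 2.43 in Ey+ INPs. That of nw was 136 ± 26.7 in Grh+ INPs, 84.3 ± 38.7 in D+ INPs and 35.02 ± 13.1 in Ey+ INPs. In D+ replicate 2, where grh was lowest, nw reached 116 counts per 1000 counts of grh, above the 106 of Grh+ replicate 2. For out the ratio was 96.5 ± 28.6 in Grh+ INPs and 68.5 ± 20.7 in Ey+ INPs, and the libraries overlapped. The ratios of Cda4, GNBP3 and nw to grh were higher in every Grh+ library than in every Ey+ library. Against D+ INPs only that of Cda4 and that of out had no overlap.

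**Figure D2:**
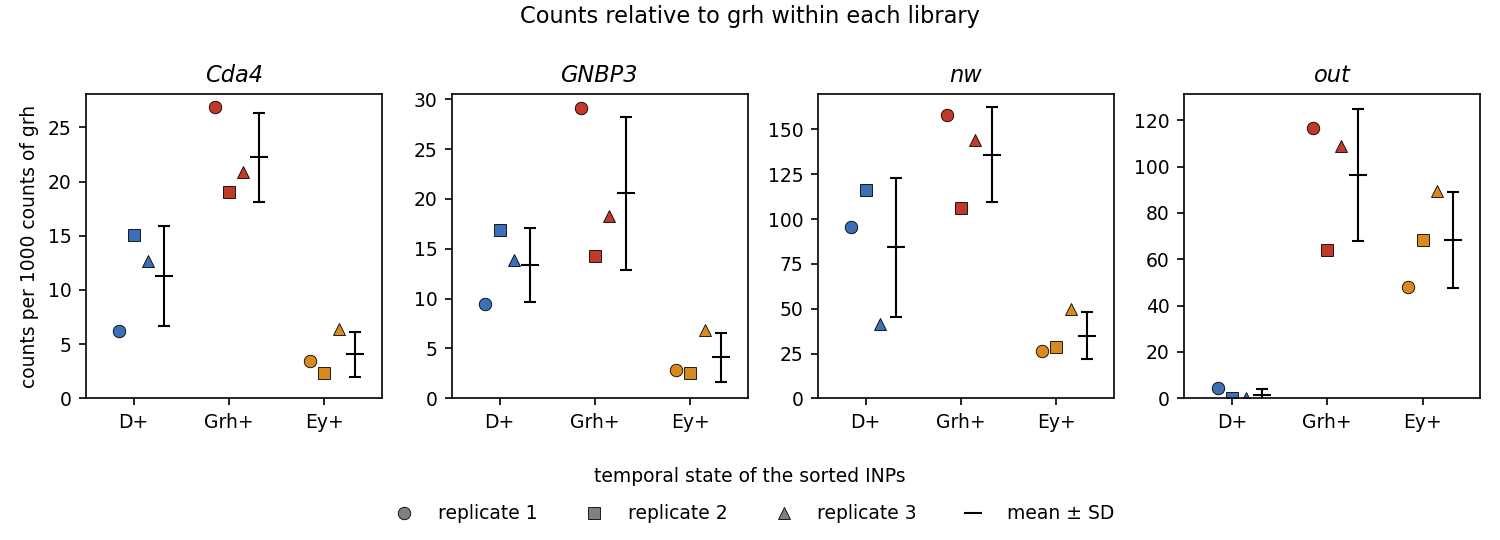
Counts of each gene per 1000 counts of grh in the same library, by temporal state (linear axes from 0, symbols are replicates, bar is mean ± SD, n = 3). Grh+ and Ey+ libraries are apart for Cda4, GNBP3 and nw and overlap for out. Counts of grh in Grh+ libraries can include those of the BAC copy.

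The course over the 9 libraries was compared with grh by Pearson's r of log2 CPM, among 6274 other genes with over 10 RPM in at least 1 state. These values are descriptions over 9 libraries that fall into 3 states and share their depth and sorting, and carry no p. The member closest to grh was out (r = 0.87, Spearman's rho 0.93, place 106), followed by nw (0.73, 0.82, place 458), Cda4 (0.68, 0.70, place 657) and GNBP3 (0.62, 0.62, place 899). Over all genes the median r was -0.17 and 4.24% exceeded 0.8. Without Grh+ replicate 2 the values were 0.87 for out, 0.65 for nw, 0.58 for Cda4 and 0.51 for GNBP3. Without the libraries farthest from the median grh level (D+ replicate 2 and Grh+ replicate 2) they were 0.81 for out, 0.71 for nw, 0.61 for Cda4 and 0.53 for GNBP3.

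Cda4 and GNBP3 were each other's closest gene (r = 0.99). Their deviations from the state means also ran together (r = 0.83). The gene nw followed both (0.92 with Cda4 and 0.93 with GNBP3), but its deviations from the state means did not follow those of Cda4 (r = -0.01). The deviations of nw followed those of out (r = 0.91), although the full profiles gave only 0.63. D+ replicate 1 was the highest D+ library for both genes. It had 24 counts of out, against 0 and 0 in D+ replicates 2 and 3, and 22.6 RPM of nw, against 10.2 and 7.08 RPM. The r of 0.91 may rest on D+ replicate 1 alone, and its value without that library was not computed. The Ey+ mean RPM lay below the D+ mean for Cda4, GNBP3 and nw, and above it for grh and out.

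The genes closest to grh were not members. They were kek1 (r = 0.99), which encodes a leucine-rich repeat transmembrane protein, tinc, MYPT-75D, CG40498 (each 0.97) and Ten-m (0.96), which encodes a teneurin adhesion protein. kek1 had 15.2, 25.9 and 11.9 RPM in Grh+ libraries, against 4.83, 0.716 and 2.08 RPM in D+ libraries. In Ey+ libraries it had 10.9, 4.92 and 3.90 RPM. Like grh, kek1 was highest in Grh+ replicate 2 and lowest in D+ replicate 2. Leaving out Grh+ replicate 2 kept 4 of these 5 genes among the closest 5, with tinc at place 6. After GNBP3, verm came closest to Cda4 (0.97). LanB1, a laminin chain gene, came closest to GNBP3 after Cda4 (0.98). mthl3, which lies within 50 kb of nw, was close to it (0.98), and Taz (0.99) and CG2841 (0.98) were close to out. For Taz, Spearman's rho to out was only 0.71. Its log2 fold changes were 0.40 over D+ INPs and 0.02 over Ey+ INPs, against 7.21 and 1.33 for out.

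**Figure D3:**
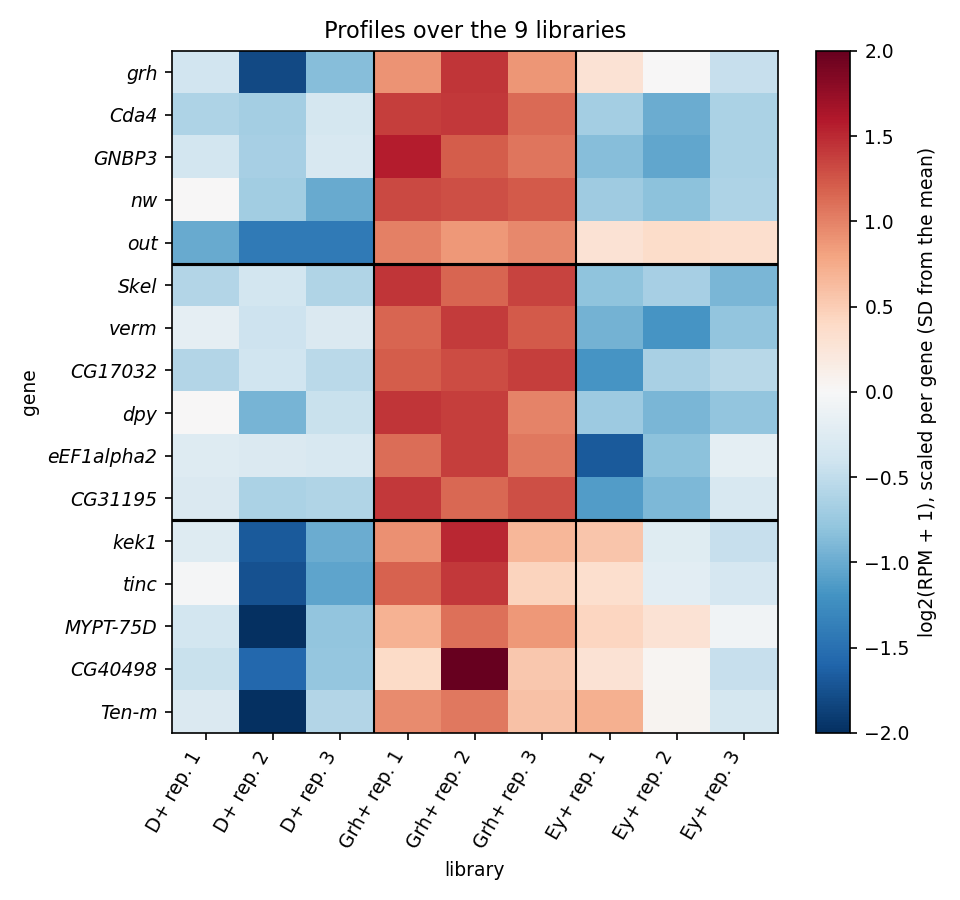
log2(RPM + 1) scaled per gene (colour, SD from the gene's mean, ends of the scale at 2 SD, values past them in the end colour) over the 9 libraries for the 5 genes, the other named genes called higher in Grh+ INPs in both comparisons, and the 5 genes closest to grh. Horizontal lines part the sets. Cda4, GNBP3, nw and the second set are highest in Grh+ libraries, and grh and the third set are lowest in D+ replicate 2. The second set was chosen by its calls and the third by its likeness to grh, so these likenesses follow from the choice.

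Called higher in Grh+ INPs against both neighbouring states were 10 genes (0.0981% of those tested), and 3 of them were Cda4, GNBP3 and nw, whose calls rest on the contrasts that chose them and are no test. The other named ones were Skel, verm, CG17032, dpy, eEF1alpha2 and CG31195, and 1 gene had no symbol in the name table. eEF1alpha2 encodes a translation elongation factor. It had 88.4, 104 and 85.1 RPM in Grh+ libraries, against 38.2, 37.7 and 36.8 RPM in D+ libraries and 15.8, 27.0 and 39.9 RPM in Ey+ libraries. Against Ey+ INPs its log2 fold change of 1.52 was the smallest of the 10 but for CG31195 at 1.10. Both comparisons share the Grh+ libraries. Of the 10, verm alone stayed called in both without any 1 of the Grh+ libraries or without Ey+ replicate 2, and verm and eEF1alpha2 without Ey+ replicate 3. Without Ey+ replicate 1 there were 5 left, Cda4, nw, verm, dpy and the gene without a symbol, and without D+ replicate 3 there were 7.

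**Figure D4:**
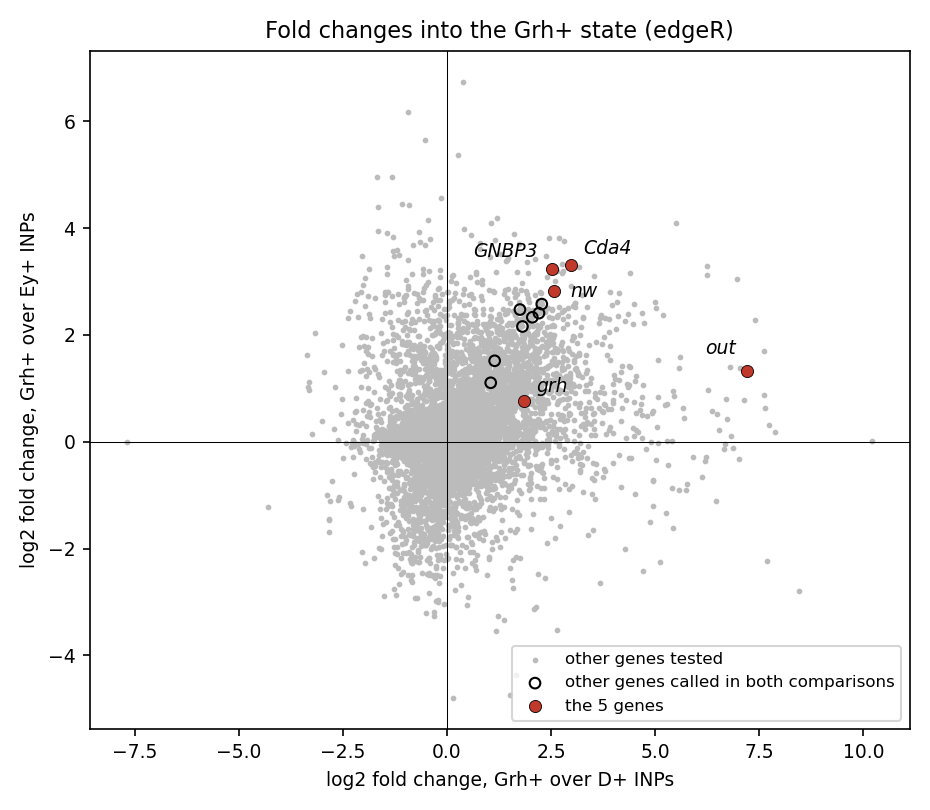
edgeR log2 fold change of Grh+ over D+ INPs (x axis) against Grh+ over Ey+ INPs (y axis) for all genes tested (grey), the 5 genes (red) and the other genes called in both comparisons (open circles). Cda4, GNBP3 and nw lie at the upper right, out at 7.21 on the x axis and 1.33 on the y axis, and grh at 1.85 and 0.77.

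Relatives of the members and genes of the settings they are known from were then followed in 6 lists written by name. The median log2 fold change of all genes tested was 0.00 for Grh+ over D+ INPs and 0.03 for Grh+ over Ey+ INPs. No listed gene was called lower by edgeR in any comparison. At an unadjusted p under 0.05, 3 were lower in Grh+ than in D+ INPs, 5 lower in Grh+ than in Ey+ INPs and 4 lower in Ey+ INPs than in D+, and DESeq2 called 0, 1 and 0 lower. Of 115 listed genes tested, 10 were called higher in Grh+ than in D+ INPs (1.73% of all genes tested) and 2 higher in Grh+ than in Ey+ INPs (0.167% of all genes tested). In Ey+ over D+ INPs 5 were called higher, where 1.65% of all genes tested were called higher and 2.31% lower (3.95% in all). The same shares of all genes stand beside the calls of each list and of the markers below. With 1 library left out in turn the counts over all listed genes lay between 1 and 14, between 1 and 5, and between 1 and 8. Counts in the first comparison were 1 without Grh+ replicate 1, 2 without Grh+ replicate 2 and 3 without Grh+ replicate 3.

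Among the chitin and cuticle genes, relatives of Cda4, 2 of 25 tested were called higher in Grh+ than in D+ INPs and 1 in Grh+ than in Ey+ INPs. The list median log2 fold change was 1.37 and 0.88, but 0.11 and -0.04 over the 7 genes with a mean over 10 RPM, and 1.11 and 0.70 without Grh+ replicate 2. The uncalled genes highest in RPM were the chitinase genes Cht10 (1.80 and 0.92) and Cht11 (0.00 and 0.03). The gene in both was verm (vermiform), a chitin deacetylase that limits tracheal tube length. It had 47.2, 57.0 and 49.7 RPM in Grh+ libraries, against 15.1, 12.3 and 13.7 RPM in D+ libraries and 7.58, 6.10 and 8.83 RPM in Ey+ libraries. The log2 fold change was 1.75 (SE 0.21, edgeR adjusted p = 0.00403) over D+ INPs and 2.47 (SE 0.22, edgeR adjusted p = 0.00534) over Ey+ INPs. Its call was kept under all 16 alternatives in both comparisons. serp (serpentine), which acts with verm in trachea and is named after its values were seen, had 12.4, 15.6 and 10.4 RPM in Grh+ libraries, against 5.39, 1.69 and 2.97 RPM in D+ libraries and 2.21, 1.87 and 2.41 RPM in Ey+ libraries. Its libraries did not overlap, but it was not called. obst-A, a chitin-binding matrix protein gene, was called against D+ INPs at 2.41 (SE 0.60, edgeR adjusted p = 0.0445), and 9 of 16 alternatives lost the call, with adjusted p up to 0.156. These left out any 1 of the Grh+ or Ey+ libraries or D+ replicate 3, used 6 libraries, or had a replicate block.

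Of the 27 genes known from embryo and epidermis as Grainyhead relatives or targets, 3 were called higher in Grh+ than in D+ INPs and none in Grh+ than in Ey+ INPs by edgeR (list medians 0.63 and 0.40, 0.45 and 0.09 without Grh+ replicate 2, and 0.40 and -0.03 over the 17 genes with a mean over 10 RPM). Against Ey+ INPs, 7 were higher and 1 lower at an unadjusted p under 0.05, and DESeq2 called 0 higher and 1 lower. The cadherin gene ft (fat) reached 2.92 (SE 0.55, edgeR adjusted p = 0.0169), the apoptosis gene skl (sickle) 2.78 (SE 0.52, adjusted p = 0.0170) and the cadherin gene stan (starry night) 1.14 (SE 0.28, adjusted p = 0.0459). The calls of ft and skl were lost without Grh+ replicate 1 or 2, that of ft also without replicate 3 (adjusted p up to 0.0757 for ft and 0.0639 for skl), and that of stan under 10 of 16 alternatives, among them leaving out any 1 Grh+ library or replicate 2 or 3 of D+ or Ey+ INPs (adjusted p up to 0.192). stan was also called in Ey+ over D+ INPs (1.15, edgeR adjusted p = 0.0399, up to 0.139). The uncalled genes highest in RPM over all libraries were shg, the E-cadherin gene, and PCNA, a replication gene. shg had log2 fold changes of 0.05 over D+ INPs and -0.03 over Ey+ INPs, and PCNA had -0.82 (edgeR adjusted p = 0.0640) and -0.05. PCNA averaged 576 RPM in Grh+ INPs, 918 RPM in D+ INPs and 507 RPM in Ey+ INPs.

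In the list around nw, 2 of 16 tested genes were called higher in Grh+ than in D+ INPs and 1 in Grh+ than in Ey+ INPs (list medians 1.05 and 1.14, 0.92 and 0.48 without Grh+ replicate 2, and 1.81 and 2.16 over the 3 genes with a mean over 10 RPM). dpy, which encodes Dumpy, had 71.4, 68.1 and 49.7 RPM in Grh+ libraries, against 22.6, 10.2 and 15.5 RPM in D+ libraries and 12.3, 10.4 and 11.5 RPM in Ey+ libraries. Its log2 fold change was 1.81 (SE 0.31, edgeR adjusted p = 0.0123) over D+ INPs and 2.16 (SE 0.31, edgeR adjusted p = 0.0264) over Ey+ INPs. Without Grh+ replicate 1 or 2 the first call was lost (adjusted p up to 0.0710) and the second under 6 of 16 alternatives, leaving out any 1 Grh+ library, D+ replicate 3 or Ey+ replicate 2 or 3 (adjusted p up to 0.193). mey (morpheyus), an apical matrix protein gene, was called against D+ INPs at 1.73 (edgeR adjusted p = 0.0215, up to 0.128 over alternatives). The call was lost without any 1 Grh+ library, without Ey+ replicate 2, with only the 6 libraries compared or with a replicate block. The uncalled genes highest in RPM were Cont, which encodes the septate junction protein Contactin, and pio (piopio). Cont averaged 186 RPM in Grh+ INPs, 106 RPM in D+ INPs and 141 RPM in Ey+ INPs, with log2 fold changes of 0.65 and 0.11. pio had 44.5, 39.3 and 30.1 RPM in Grh+ libraries, against 10.01, 0.460 and 7.23 RPM in D+ libraries. In Ey+ libraries it had 5.42, 3.59 and 7.62 RPM. The spread of its D+ libraries was wide and edgeR's adjusted p was 0.0813 against D+ INPs and 0.341 against Ey+ INPs.

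Recognition and Toll or Imd pathway genes, the setting of GNBP3, had list medians of 0.27 and 0.16 (0.22 and 0.03 over the 14 genes with a mean over 10 RPM). Of 30 tested, GNBP1 and Tl were called higher in Grh+ than in D+ INPs and none in Grh+ than in Ey+ INPs by edgeR. Against Ey+ INPs, 4 were higher and 1 lower at an unadjusted p under 0.05, and DESeq2 called 1 higher. GNBP1, which acts with peptidoglycan receptors, had 26.01, 20.1 and 26.4 RPM in Grh+ libraries, against 6.69, 10.1 and 5.54 RPM in D+ libraries and 14.3, 18.7 and 18.4 RPM in Ey+ libraries. It was called in Ey+ over D+ INPs as well (1.33, edgeR adjusted p = 0.0188, up to 0.106). That call was lost without any 1 Ey+ library, without Grh+ replicate 1 or 3, or with only the 6 libraries compared. Tl, the Toll receptor gene, reached 1.52 over D+ INPs (SE 0.29, edgeR adjusted p = 0.0187). The uncalled genes highest in RPM were key and Tak1 of the Imd pathway, with log2 fold changes of 0.22 and 0.53 over D+ INPs and 0.04 and -0.14 over Ey+ INPs. The Grh+ calls of GNBP1 and Tl were lost without Grh+ replicate 1 or 3 or with only the 6 libraries compared. That of Tl was also lost without Grh+ replicate 2 or with a replicate block (adjusted p up to 0.0869 for GNBP1 and 0.108 for Tl).

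Of 9 tested monocarboxylate transporter genes, the family of out, CG8468 was called higher in Grh+ than in D+ INPs (2.59, SE 0.52, edgeR adjusted p = 0.0220). The call was lost without any 1 Grh+ library or with only the 6 libraries compared (adjusted p up to 0.0912 over alternatives). None of the 9 was called in Grh+ over Ey+ INPs by edgeR or DESeq2, and 1 was higher and 1 lower at an unadjusted p under 0.05. The list medians were 0.78 and 0.17, with 0.62 and -0.43 without Grh+ replicate 2 and 0.47 and -0.45 over the 5 genes with a mean over 10 RPM. The uncalled genes highest in RPM were hrm (0.17 and -0.45) and CG8389 (0.47 and 0.17). Called higher in Ey+ than in D+ INPs were CG13907 (1.89, edgeR adjusted p = 0.000898, kept under all 16 alternatives) and CG8034 (1.84, adjusted p = 0.0377, up to 0.135). The call of CG8034 was lost under 9 of 16 alternatives, among them leaving out any 1 Grh+ library, replicate 2 or 3 of D+ INPs or replicate 1 or 2 of Ey+ INPs. CG13907 had 51.5, 51.4 and 50.04 RPM in Ey+ libraries, against 17.8, 14.0 and 14.1 RPM in D+ libraries. In Grh+ libraries it lay between them, at 33.5, 35.3 and 30.4 RPM. Of 10 genes of germ cell migration (list medians 0.13 and -0.18, and 0.02 and -0.30 over the 8 genes with a mean over 10 RPM), none was called in either Grh+ comparison by edgeR or DESeq2. At an unadjusted p under 0.05, 3 were higher and 1 lower than in D+ INPs, and 2 lower than in Ey+ INPs. Besides shg, the uncalled gene highest in RPM was qm (0.31 and -0.38). The gene wun2, a lipid phosphate phosphatase gene, was called higher in Ey+ than in D+ INPs (1.21, edgeR adjusted p = 0.00827). It lost the call without Ey+ replicate 2 or with only the 6 libraries compared (adjusted p up to 0.0621 over alternatives). It averaged 643 RPM in Grh+ INPs, 329 RPM in D+ INPs and 706 RPM in Ey+ INPs. Its log2 fold change of Grh+ over D+ INPs, 0.82 (edgeR adjusted p = 0.0358), was under the limit of 1, and that over Ey+ INPs was -0.39.

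**Figure D5:**
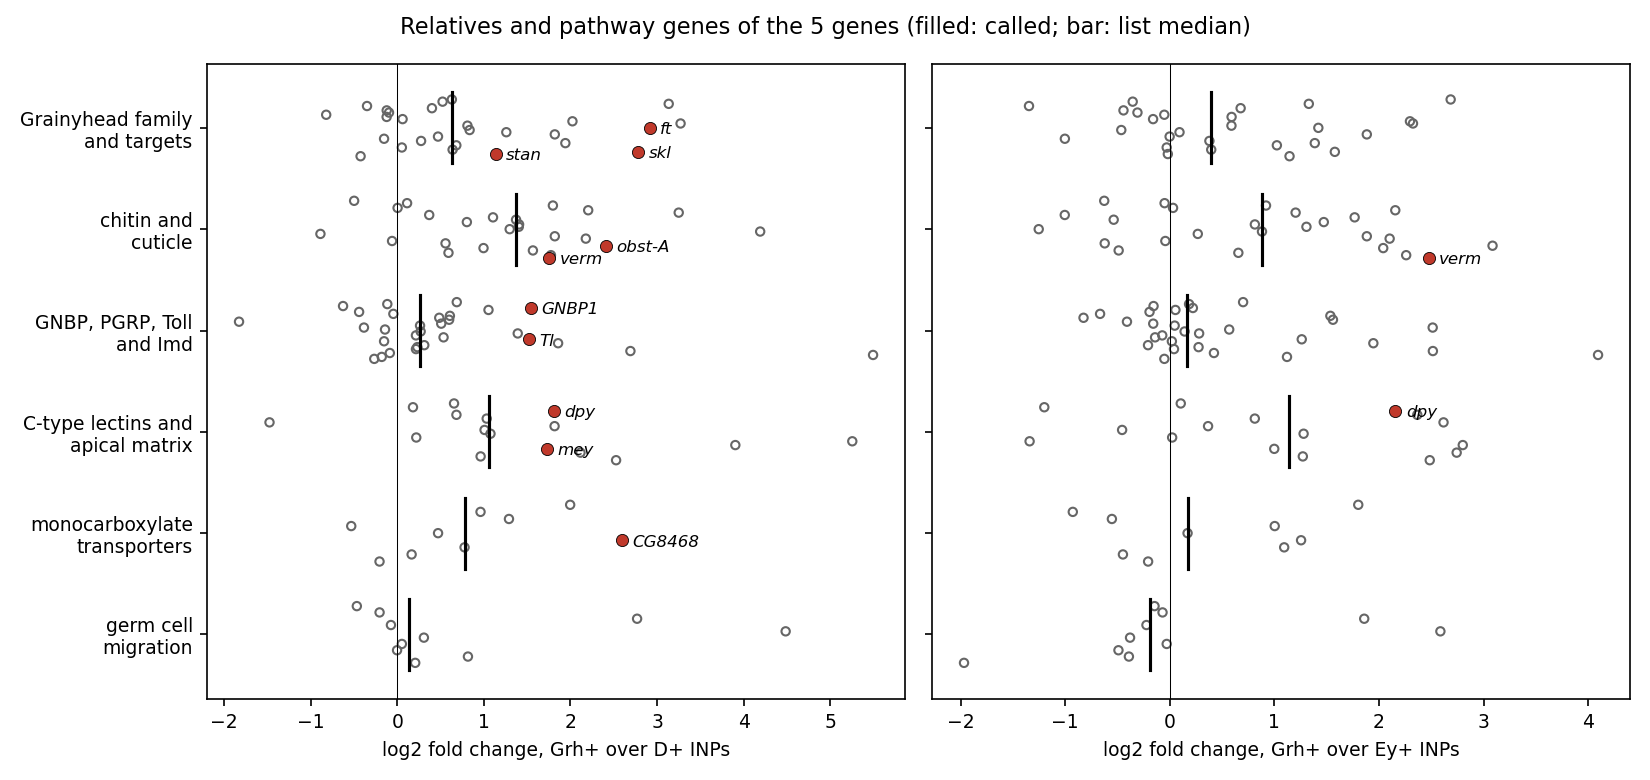
edgeR log2 fold change of each tested gene of the 6 lists (rows), for Grh+ over D+ INPs on the left and Grh+ over Ey+ INPs on the right. Filled circles with names are called genes and vertical bars are list medians. Only verm and dpy are called in both panels.

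Markers of other cell types were read beside these values. Summed epithelial and tracheal markers, which include verm and serp, were at 1119 to 1346 RPM in Grh+ libraries, 585 to 1427 RPM in D+ libraries and 1075 to 1383 RPM in Ey+ libraries. Most of this sum was shg (means 833, 723 and 682 RPM in Grh+, D+ and Ey+ INPs) and Fas3 (249, 285 and 501 RPM). By edgeR verm alone was called, higher in Grh+ INPs in both comparisons. At an unadjusted p under 0.05, 3 were higher than in D+ INPs, and 4 higher and 1 lower than in Ey+ INPs. DESeq2 called 3 higher than in D+ INPs, and 2 higher and 1 lower than in Ey+ INPs. Of the 9, Cpr49Ac was at 0 in D+ replicate 2. For crb, trh, serp and verm every Grh+ library lay above all others, as was so for 9.31% of all genes tested. crb had 27.2, 24.7 and 18.1 RPM in Grh+ libraries, 1.84 to 10.1 RPM in D+ libraries and 3.64 to 9.11 RPM in Ey+ libraries. shg, Fas3, Gasp, vvl and Cpr49Ac overlapped between Grh+ and D+ libraries. The 10 hemocyte markers summed to 94.6 to 125 RPM in Grh+ libraries, above 60.6 to 69.9 RPM in D+ libraries and 55.2 to 76.8 RPM in Ey+ libraries. Most of this sum was crq, with 62.6, 66.8 and 75.2 RPM in Grh+ libraries, 56.7, 43.5 and 62.2 RPM in D+ libraries and 50.4, 60.3 and 60.01 RPM in Ey+ libraries. Ppn had 24.3, 22.9 and 15.3 RPM in Grh+ libraries, 7.29, 2.098 and 0.396 RPM in D+ libraries and 1.47, 2.75 and 3.61 RPM in Ey+ libraries. Hml had 4.62, 15.1 and 1.14 RPM in Grh+ libraries, 1.21, 0 and 0.445 RPM in D+ libraries and 0.735, 1.48 and 5.85 RPM in Ey+ libraries. He and eater were at 0 in the 3 D+ libraries, and NimC1 and Col4a1 overlapped between Grh+ and D+ libraries. None of the 7 tested was called by edgeR, 2 were higher in Grh+ than in D+ INPs and 1 than in Ey+ INPs at an unadjusted p under 0.05, and DESeq2 called 1 in each. The 10 glia markers summed to 1597 to 2014 RPM in Grh+ libraries, 917 to 1858 RPM in D+ libraries and 1078 to 1352 RPM in Ey+ libraries. Most of this sum was Eaat1 (means 1003, 761 and 614 RPM in Grh+, D+ and Ey+ INPs) and nrv2 (676, 674 and 577 RPM). For moody, wrapper, alrm, Gli and Indy every Grh+ library lay above all others (9.31% of all genes tested), and the other glia markers overlapped. By edgeR 2 of them, wrapper and Gli, were called higher in Grh+ than in D+ INPs. At an unadjusted p under 0.05, 5 of 9 tested were higher than in D+ INPs and 2 higher than in Ey+ INPs, and DESeq2 called 3 and 1. The 8 neuron markers summed to 418 to 903 RPM in Grh+ libraries, 210 to 1013 RPM in D+ libraries and 676 to 2806 RPM in Ey+ libraries, and VGlut was called higher in Grh+ than in D+ INPs. Fat body markers summed to 372 to 488 RPM in Grh+ libraries, 243 to 381 RPM in D+ libraries and 277 to 342 RPM in Ey+ libraries. The part of other cells in the levels of the 5 genes was not tested.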

How the data were processed

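The deposited files give counts per gene. Per the study's methods and the submitters' processing notes, the authors screened out rRNA using BWA 0.7.12, aligned to FlyBase r6.12 using TopHat2 2.1.1, marked duplicates by molecular tag, and counted without strand with HTSeq 0.6.1. Whether marked duplicates were dropped is not given in the sources used here, so counting limits cover counting error only. Summary lines that name no gene held 34.7% to 53.2% of counts per library and were left out. Unstranded counts cannot separate grh from its antisense gene (5.66% of its exons, 119 counts in all).

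Counts were fitted in edgeR 4.0.16 (R 4.3.3, TMM, filter by group, quasi-likelihood test, all 9 libraries, 1 coefficient per state, common biological coefficient of variation 0.477). Likeness used CPM with a prior count of 2. Alternatives were DESeq2 1.42.0, other scalings, filters and library sets, and a replicate block. On simulated counts, 177 of 200 genes changed by 2 on the log2 scale were recovered for Grh+ against D+ INPs, with 4 false calls. The changed genes were over 10 RPM, and libraries were drawn independently around 1 mean per gene. No outlying library or shift in composition was simulated, so this does not measure recovery in the real libraries. The members and lists were chosen with earlier results of these data known. Genes named were the members, the 3 called genes next behind them, those most like each member, and on each list every called gene and the 2 uncalled with the highest RPM, with exceptions marked. Neighbours of grh and out were named by level or adjusted p after their values were seen. Symbols matched 16208 of 16364 identifiers. Positions and exon lengths come from BDGP6.54. A planned promoter motif search was not run because no sequences were used here.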

Additional observations from a re-analysis of the deposited data

How the results depend on the processing

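Of 210 refitted log2 fold changes of the 5 genes, 206 moved by less than their spread. The exceptions were nw for Ey+ over D+ INPs, at 0.38 without D+ replicate 1 (-0.53 to 0.38 over the libraries left out), nw for Grh+ over D+ INPs at 3.20, and out at 12.99 and 11.65 in both comparisons with D+ INPs, all without that library. The cause was not tested. Scaling by library size alone moved the median of all genes to 0.16 (Grh+ over D+), 0.29 (Grh+ over Ey+) and -0.14 (Ey+ over D+). Genes called in Grh+ against D+ INPs (322) numbered 183 with only the 6 libraries compared and 214 with a replicate block, and library size alone gave 224 higher and 51 lower, against 176 and 146. In Grh+ against Ey+ INPs (24) they numbered 173 by DESeq2, 50 with at least 10 counts in every library, 96 by library size alone, 141 with 6 libraries and 10 with a replicate block. In Ey+ against D+ INPs (403) they numbered 139 with 6 libraries. Leaving out 1 library in turn gave 53 to 505, 3 to 72 and 107 to 657 called genes, and 1 to 14, 1 to 5 and 1 to 8 listed genes. Listed genes called in Grh+ against Ey+ INPs (2) numbered 5 by library size alone and 7 by DESeq2, and in Ey+ against D+ INPs (5) numbered 8 by DESeq2. Counts without single libraries for the genes called in both comparisons and list medians without Grh+ replicate 2 or over genes past 10 RPM were chosen after seeing the data. Whether the replicate numbers pair the libraries cannot be told from these data. In their deviations from the state means, same-numbered libraries correlated from -0.26 to 0.50 and differently numbered ones from -0.54 to 0.37. Low counts limit Cda4 and GNBP3 outside Grh+ INPs, where libraries held 15 to 52 counts.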
